A study of Mus musculus with 8 samples.

Results

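The Hox genes encode homeodomain transcription factors and lie in 4 clusters in the mouse, HoxA on chromosome 6, HoxB on chromosome 11, HoxC on chromosome 15 and HoxD on chromosome 2. The 39 genes described here were all the rows of the count table whose symbol was Hoxa, Hoxb, Hoxc or Hoxd followed by a number, out of 24419 rows. Genes that hold the same place in their clusters are paralogs and share a number from 1 to 13. In the embryo, genes with low numbers are switched on early and towards the head and genes with high numbers late and towards the tail, and in the limb buds the paralogs 9 to 13 pattern the segments from the upper limb to the digits. Fibroblasts and other stromal cells of the adult keep a part of this code, which differs between body sites, so that it is read as a record of where a cell came from.

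The cells were fibroadipogenic progenitors, mesenchymal cells between the fibres of muscle from which fibroblasts and fat cells arise. They came from hindlimb muscle, and the mice were male C57BL/6J of an age that the labels do not give. The sort took cells that lacked CD31, CD45, α7-integrin and propidium iodide and that carried SCA-1 and a Hoechst stain. In the miR-27a-KD group (n = 3) the mice had received, in the pancreas, KPCY cells with a lentiviral vector that inhibits miR-27a-3p, and in the KPC Scr group (n = 3) KPCY cells with a lentiviral vector that carries a scrambled sequence. KPCY is a line of mouse pancreatic cancer cells. Both derivatives were stable lines selected for 7 days with puromycin at 2 µg/mL. The mice of the sham group (n = 2) had sham surgery. The inhibitor was in the implanted cells and not in the sorted progenitors, and mature microRNAs, which lack a poly(A) tail, escape libraries of this kind, so the knockdown itself could not be checked in these libraries. The labels call the libraries biological replicates.

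Total counts ran from 15647436 to 28340450 per library. The 10 progenitor markers, among them Pdgfra, Dcn and Col1a1, were all present in each library, with a summed level of 98959 to 105344 CPM (reads per 1 000 000, with TMM scaling) in miR-27a-KD, 76226 to 104969 in KPC Scr and 106432 to 106864 in sham. Gsn alone gave 49407 to 74827 CPM of this sum, which hides differences between the markers. Ly6a, Col1a1, Col3a1, Lum, Pi16, Dpp4 and Cd34 were lower in KPC Scr libraries 1 and 3 than in any other library. Col1a1 stood there at 1174 and 557 CPM, against at least 5448 CPM elsewhere. Dcn was higher in these 2 libraries, and Pdgfra and Gsn overlapped. KPC Scr library 2 stood apart from the other libraries of its group. On the first principal component, which held 61.1% of the variance of all tested genes, the miR-27a-KD libraries lay from -39.5 to -32.3, KPC Scr libraries 1, 2 and 3 at 115, -12.3 and 92.0, and the sham libraries at -47.7 and -42.1. Counts of Hox genes that passed a test are therefore given with and without KPC Scr library 2.

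Hox transcripts were rare. Summed over the 39 genes they made up 0.0219% to 0.0246% of the counts in miR-27a-KD libraries, 0.0166% to 0.0246% in KPC Scr libraries and 0.0203% and 0.0233% in sham libraries, or 3176 to 5782 reads per library. In bulk RNA, fewer cells that transcribe a gene and less RNA per cell cannot be told apart.

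The promoters of Hoxa5, Hoxa7 and Hoxa9 in the HoxA cluster and of Hoxd4 in the HoxD cluster are shown because these genes are among those whose levels set KPC Scr libraries 1 and 3 apart from the other libraries. Each sequence is the 250 bases before the gene's start in RefSeq (GRCm38.p6), written 5′ to 3′ on the gene's own strand, with CG pairs in capitals. The windows are chr6:52204588-52204837 on the minus strand for Hoxa5, chr6:52218574-52218823 on the minus strand for Hoxa7, chr6:52227371-52227620 on the minus strand for Hoxa9 and chr2:74721728-74721977 on the plus strand for Hoxd4. The windows of Hoxa7, Hoxa9 and Hoxd4 start from a RefSeq start that lies inside the longer gene of GENCODE M21.
Hoxa5: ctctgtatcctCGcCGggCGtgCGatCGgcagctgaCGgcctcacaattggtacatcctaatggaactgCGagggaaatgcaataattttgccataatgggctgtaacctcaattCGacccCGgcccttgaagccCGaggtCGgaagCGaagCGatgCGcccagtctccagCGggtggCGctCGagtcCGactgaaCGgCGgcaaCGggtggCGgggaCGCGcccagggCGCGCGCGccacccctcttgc
Hoxa7: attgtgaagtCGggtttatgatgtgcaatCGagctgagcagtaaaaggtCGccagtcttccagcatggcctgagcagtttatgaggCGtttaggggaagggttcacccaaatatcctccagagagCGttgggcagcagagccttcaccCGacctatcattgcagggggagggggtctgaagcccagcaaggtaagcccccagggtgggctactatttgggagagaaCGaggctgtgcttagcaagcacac
Hoxa9: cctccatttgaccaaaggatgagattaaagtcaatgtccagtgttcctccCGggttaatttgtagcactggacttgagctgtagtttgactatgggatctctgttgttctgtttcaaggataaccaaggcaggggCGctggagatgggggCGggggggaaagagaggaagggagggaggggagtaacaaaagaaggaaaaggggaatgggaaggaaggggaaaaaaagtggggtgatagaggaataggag
Hoxd4: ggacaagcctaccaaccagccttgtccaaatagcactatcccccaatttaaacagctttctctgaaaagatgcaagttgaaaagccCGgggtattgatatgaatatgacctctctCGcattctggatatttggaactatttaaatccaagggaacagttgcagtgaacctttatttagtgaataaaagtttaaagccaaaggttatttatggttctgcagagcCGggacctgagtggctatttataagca

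The Hoxa5 window held 28 CG pairs, more than 92.4% of all promoter windows in the table, whereas those of Hoxa7, Hoxa9 and Hoxd4 held 7, 3 and 3. Of the 39 genes, 22 had a promoter in the table, with 24 windows in all, and their median was 12.5 CG pairs (range 2 to 35) against 6 (range 0 to 56) over 32851 promoters. CCAAT, on either strand, was found in 58.3% of the Hox windows and in 33.8% of all windows. TATAAA, on either strand, was found in 16.7% and 12.4%, and TGATNNAT, the letters to which a Hox protein and its partner Pbx can bind together, on either strand in 16.7% and 7.68%. Both the Hoxa5 and the Hoxd4 window held CCAAT, the Hoxd4 window also held TATAAA, on the strand opposite to the one printed, and none of the 4 windows shown held TGATNNAT. These letters describe the windows only. The microRNA inhibited in the implanted cells is shown with its seed, bases 2 to 8, in capitals (RefSeq, chr8:84208727-84208747, plus strand, GRCm38.p6).
mmu-miR-27a-3p: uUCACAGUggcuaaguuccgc

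With 10 or more reads in at least 2 of the 8 libraries taken as expressed, 32 of the 39 Hox genes were expressed: 10 of 11 in HoxA, 7 of 10 in HoxB, 8 of 9 in HoxC and 7 of 9 in HoxD. The same 32 passed the filter on low counts and were tested. Hoxb1, Hoxb13, Hoxd1 and Hoxd12 had 0 reads in every library, which allows up to 3 reads per library by counting error alone. The other genes below the threshold were Hoxa13 with 5 reads in all, Hoxc12 with 2 and Hoxb8 with 42, of which 16 were in 1 library. Just inside the threshold were Hoxb9 with 50 reads and 2 libraries of 10 or more, and Hoxb5, Hoxb7 and Hoxd11 with 3 such libraries each. Asking for 10 reads in all 8 libraries left 19 genes. The HoxA and HoxD members of the paralogs 12 and 13 pattern the hand and foot in the embryo. Of the paralogs 12 and 13 in all clusters, Hoxa13, Hoxb13, Hoxc12 and Hoxd12 were below the threshold. Hoxc13 and Hoxd13 passed it with 58 and 64 reads in all.

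Per length of exon, HoxC genes held most of the first places. As CPM per kb of the gene's joined exons, Hoxc10 (chr15:102966796-102971893) averaged 19.0 ± 0.421 (SD, n = 3) in miR-27a-KD, 14.6 ± 3.13 (n = 3) in KPC Scr and 21.2 ± 1.05 (n = 2) in sham libraries. In the mouse embryo this gene is transcribed in the lumbar region and the hindlimb bud. Hoxa10 (chr6:52231197-52240854), which patterns the upper segment of the limb and the lumbar spine, followed with 9.20 ± 1.5 in miR-27a-KD, 11.9 ± 2.37 in KPC Scr and 10.5 ± 0.943 in sham. Hoxc6 (chr15:102998257-103011881), a gene of the thoracic region, came next with 11.6 ± 0.727 in miR-27a-KD, 7.93 ± 3.82 in KPC Scr and 8.97 ± 1.76 in sham.

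By the mean of the 3 group means the order went on, still in CPM per kb, with Hoxc9 at 5.45, Hoxc4 and Hoxc11 at 4.53 each, Hoxa11 at 3.83, Hoxa9 at 3.69, Hoxd8 at 3.57, Hoxa5 at 3.34, Hoxc8 at 3.16 and Hoxa7 at 2.12. Each of these overlapped its neighbours in the order over the 8 libraries, and so did Hoxc10 and Hoxa10, although Hoxc10 was above Hoxa10 within each library. The remaining 20 expressed genes lay below 2 CPM per kb. This order depended on the length taken. Per kb of the longest transcript instead of the joined exons, Hoxc10 kept place 1, and Hoxc6 at 14.5 stood above Hoxa10 at 13.4. Hoxa9 then moved from place 8 to place 4, at 6.38. The order of the 32 genes was much alike between libraries, with Spearman's rho from 0.846 to 0.982 over the 28 pairs of libraries (median 0.922); the libraries of all groups share the gene lengths, and no p is given.

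**Figure D1:**
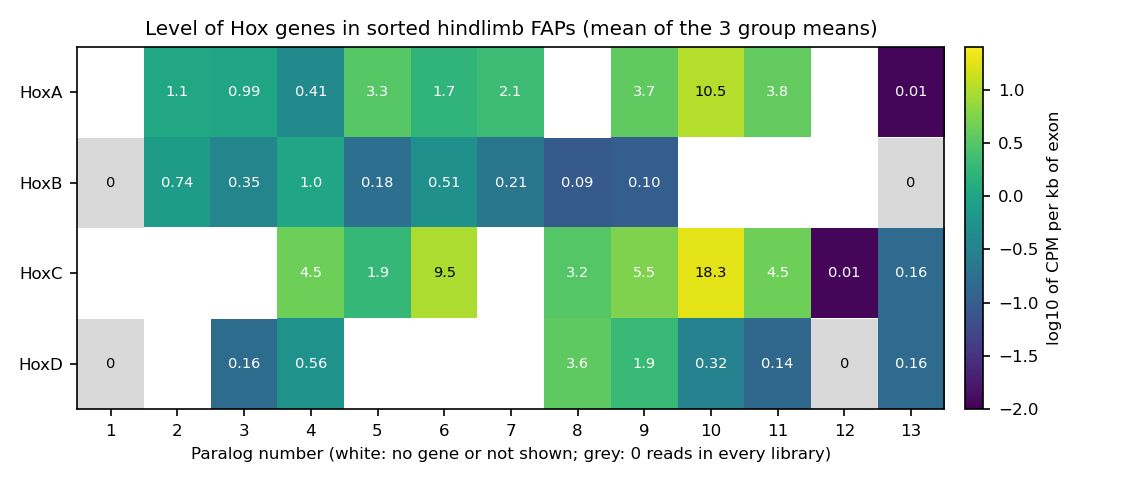
Mean level of each Hox gene, as CPM per kb of exon averaged over the 3 group means, with the clusters in rows and the paralog number in columns; colour gives the same value on a log10 scale. Hoxc10 at 18.3 and Hoxa10 at 10.5 stand highest, HoxB is low throughout, and the genes with paralog numbers 12 and 13 are at or near 0; 1 gene is not shown.

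As shares of the summed Hox level per kb, HoxC held 55.7% to 61.0% in miR-27a-KD libraries, 45.2% to 53.4% in KPC Scr libraries and 58.9% and 60.1% in sham libraries. HoxA held 26.6%, 29.6% and 28.3% in miR-27a-KD libraries 1, 2 and 3, 44.3%, 34.6% and 43.2% in KPC Scr libraries 1, 2 and 3, and 29.5% and 30.1% in sham libraries 1 and 2. The share of HoxA was thus higher, and that of HoxC lower, in each of the 3 KPC Scr libraries than in any other library, with KPC Scr library 2 nearest to the others. HoxD held 5.79% to 10.9% and HoxB 1.69% to 4.86% over all libraries, and the groups overlapped in both. The shares rest on the joined exons, so they too depend on the length taken.

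**Figure D2:**
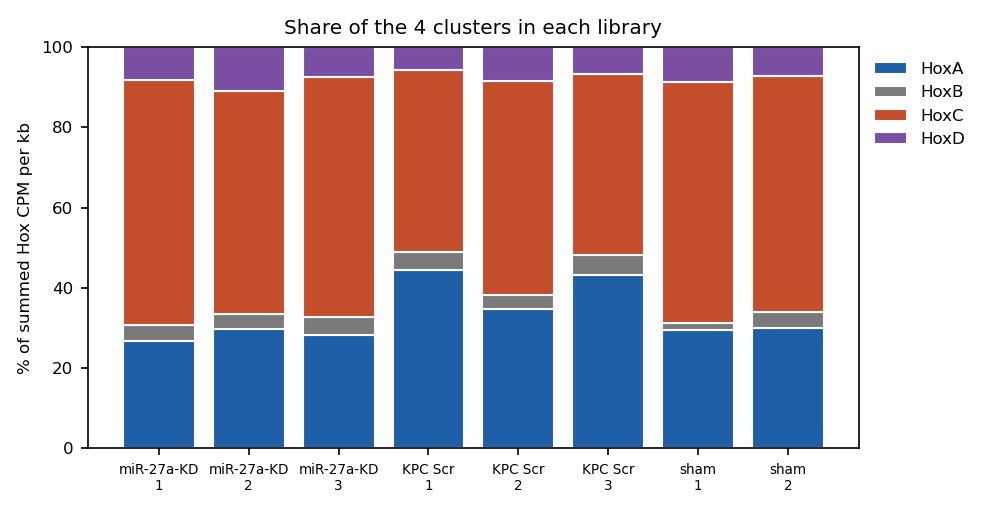
Share of the 4 clusters in the summed Hox level (CPM per kb) of each library, in percent; each bar is 1 library. HoxA (blue) takes 34.6% to 44.3% in the KPC Scr libraries, against 26.6% to 30.1% in the miR-27a-KD and sham libraries.

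The summed markers of some other cells also moved with the KPC Scr group. The 10 markers of muscle fibres summed to 40.6 to 56.5 CPM in miR-27a-KD, 59.0 to 206 CPM in KPC Scr and 27.6 and 55.4 CPM in sham libraries, with Myh7 at 0 in 7 of the 8 libraries. The 5 markers of red blood cells summed to 1.17 to 3.94 CPM in miR-27a-KD, 4.52 to 18.0 CPM in KPC Scr and 0.506 and 1.67 CPM in sham libraries, all of it from Alas2, since the 4 globin genes were at 0 in every library. The 7 markers of mature adipocytes summed to 66.3 to 81.3 CPM in miR-27a-KD, 76.8 to 230 CPM in KPC Scr and 40.6 and 55.3 CPM in sham libraries, with Lep at 0 in each library. Here KPC Scr library 2, at 76.8 CPM, was within the range of the miR-27a-KD libraries. Nearly all of the adipocyte sum came from Fabp4, at 221, 75.2 and 215 CPM in KPC Scr libraries 1, 2 and 3. Adipoq was at most 0.882 CPM in any library, and Plin1 was at 0 in KPC Scr libraries 1 and 3. The 8 endothelial markers summed to 491 to 578 CPM in miR-27a-KD, 397 to 468 CPM in KPC Scr and 512 and 527 CPM in sham libraries. Tek was the largest part, at 357 to 408 CPM in miR-27a-KD, 201 to 291 CPM in KPC Scr and 392 and 412 CPM in sham. Pecam1, Kdr, Vwf and Cldn5 went the other way, higher in KPC Scr libraries 1 and 3 than in any other library. Cdh5, Emcn and Egfl7 overlapped. The 6 epithelial tumour markers summed to 18.3 CPM in KPC Scr library 1 and 4.35 to 8.32 CPM elsewhere. Cdh1 gave 9.40 CPM there and Epcam 4.04 CPM, whereas Krt19 and Muc1 were not raised. The 7 Schwann cell markers summed to 103, 60.3 and 91.3 CPM in KPC Scr libraries 1, 2 and 3. They summed to 73.5 to 80.9 CPM in miR-27a-KD and 47.3 and 54.1 CPM in sham, but S100b and Ncam1 were lowest in KPC Scr libraries 1 and 3. The part of these cells in the shares of the clusters was not tested.

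The comparison of KPC Scr with sham libraries asked what differs in the progenitors of mice that carry the tumour with the scrambled sequence. None of the 32 Hox genes passed the threshold of the test (edgeR's quasi-likelihood test, Benjamini-Hochberg adjusted p under 0.05), against 1.58% of all 13646 genes tested. DESeq2 also called 0 of 32, against 14.3% of all genes. At an unadjusted p under 0.05 there were 4 of 32 (12.5%), against 29.2% of all genes: Hoxa5 and Hoxa9 with more counts in KPC Scr libraries and Hoxc10 and Hoxc5 with fewer. The groups did not overlap in 9 of 32 genes (28.1%), against 41% of all genes. These shares lie below those of all genes. Hox transcripts were rare, and here and below the shares of Hox genes were not compared with those of genes of equal level.

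Hoxa9 (chr6:52223100-52231089) takes part in limb patterning and in the renewal of blood and muscle stem cells. It stood at 25.8, 22.4 and 31.9 CPM in KPC Scr libraries 1, 2 and 3 against 16.6 and 19.1 CPM in sham libraries 1 and 2. Every KPC Scr library was above both sham libraries, and the log2 change was 0.58 ± 0.22 (SE; edgeR adjusted p = 0.134). Hoxa5 (chr6:52201754-52204587), which is needed for the lung and the cervical and thoracic skeleton, stood at 9.87, 4.82 and 13.2 CPM in KPC Scr against 3.42 and 5.08 CPM in sham. KPC Scr library 2 lay within the sham range, and the log2 change was 1.10 ± 0.45 (adjusted p = 0.150).

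Hoxa7 (chr6:52214491-52221854) stood at 8.82, 4.94 and 9.95 CPM in KPC Scr libraries 1, 2 and 3 against 5.69 and 5.08 CPM in sham. Here too KPC Scr library 2 was low, below both sham libraries, and the log2 change was 0.54 ± 0.37 (edgeR adjusted p = 0.333). Hoxa10 stood at 30.1, 44.8 and 41.6 CPM in KPC Scr against 32.1 and 36.4 CPM in sham, and Hoxa11 (chr6:52242106-52245810), which patterns the lower segment of the limb, at 8.38, 14.4 and 8.75 CPM against 8.35 and 7.81 CPM. In these 2 genes, at the far end of the cluster, KPC Scr library 2 was the highest and not the lowest of its group. The log2 changes were 0.18 ± 0.23 for Hoxa10 and 0.39 ± 0.34 for Hoxa11 (edgeR adjusted p = 0.597 and 0.449), and only for Hoxa11, by a narrow margin, did these groups not overlap. Of the exon bases of Hoxa11, 34.98% lie opposite exons of Hoxa11os, so with the counting strand not given the reads of the pair could not be separated.

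All 10 tested HoxA genes had a log2 change above 0 in KPC Scr against sham libraries (from 0.18 to 1.21, median 0.56), where the median of all genes was 0.00 and 50.1% of genes were above 0. None of the 10 passed the test. The count was 10 of 10 under each alternative, other scalings included, except without KPC Scr library 3, where it was 9 of 10. For HoxC it was 1 of 8 (median -0.14), up to 4 of 8 without KPC Scr library 1 or without sham library 2, and for HoxB and HoxD 6 of 7 and 4 of 7. The 10 HoxA genes lie next to each other, share the same libraries and are not replicates of a condition.

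Hoxc5 (chr15:102967443-103017429) stood at 1.41, 5.54 and 3.34 CPM in KPC Scr libraries 1, 2 and 3 against 6.96 and 7.81 CPM in sham. Each KPC Scr library was below both sham libraries, with a log2 change of -1.11 ± 0.47 (edgeR adjusted p = 0.157). Hoxc10 stood at 21.0, 31.2 and 31.5 CPM in KPC Scr against 39 and 41.8 CPM in sham, a log2 change of -0.53 ± 0.21 (adjusted p = 0.138), also with no overlap. In the annotation 5.374% of the exon bases of Hoxc5 are shared with Hoxc10 on the same strand, and reads there could belong to either gene.

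The other HoxC genes overlapped between these groups, except Hoxc9. Hoxc6 stood at 11.1, 29.2 and 17.1 CPM in KPC Scr libraries 1, 2 and 3 against 18.6 and 24.6 CPM in sham, and Hoxc8 (chr15:102990607-102994111), which restrains brown fat genes in fat precursors, at 3.92, 12.9 and 6.74 CPM against 7.21 and 8.59 CPM. In both, KPC Scr library 2 was above and the other libraries of its group below the sham libraries. Hoxc9 (chr15:102976439-102985099), a gene of the thoracic region, stood at 12.9, 13 and 21.0 CPM in KPC Scr against 11.1 and 12.4 CPM in sham, with a log2 change of 0.40 ± 0.28 (edgeR adjusted p = 0.342). Hoxc4 (chr15:103018934-103036852) and Hoxc11 (chr15:102954427-102957708) overlapped, at 9.83, 12.6 and 10.8 CPM in KPC Scr against 12.5 and 10.4 CPM in sham for Hoxc4 and at 10.2, 9.21 and 7.18 CPM against 9.55 and 9.54 CPM for Hoxc11. The 95% intervals of their log2 changes ran from -0.58 to 0.50 for Hoxc4 and from -0.73 to 0.53 for Hoxc11, and changes of that size were not detectable.

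In HoxD, Hoxd4 (chr2:74711929-74729160) had 16, 78 and 1 reads in KPC Scr libraries 1, 2 and 3 (0.627, 3.30 and 0.0630 CPM) against 39 and 29 reads in sham (2.47 and 1.62 CPM). Libraries 1 and 3 were below and library 2 above the sham libraries. Of its exon bases 52.31% are shared on the same strand with Hoxd3 and a predicted gene, so its count is uncertain. Hoxd8 (chr2:74704615-74707933) stood at 4.31, 11.4 and 8.31 CPM in KPC Scr against 10.4 and 8.43 CPM in sham, with the same order of the 3 KPC Scr libraries as Hoxc6, Hoxc8 and Hoxc5.

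HoxB genes were low. Hoxb7 (chr11:96286623-96290162) had 9, 18 and 3 reads in KPC Scr libraries 1, 2 and 3 against 1 and 3 reads in sham, or 0.353, 0.761 and 0.189 CPM against 0.0633 and 0.167 CPM. The log2 change of 1.90 ± 1.32 (edgeR adjusted p = 0.332) rests on few reads. Hoxb3 (chr11:96323326-96347930) stood at 1.57, 0.676 and 3.27 CPM in KPC Scr against 0.253 and 1.34 CPM in sham, with a log2 change of 1.06 ± 0.85 (adjusted p = 0.402). That value was 0.36 without sham library 1, 2.72 without sham library 2 and 0.46 without KPC Scr library 3, and it was called in none of them. Both groups spread widely and overlapped, and 52.93% of its exon bases lie opposite Hoxb3os.

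Without KPC Scr library 2, 7 of 32 Hox genes passed the test in KPC Scr against sham libraries (21.9%), against 51% of all genes. Hoxa5 (log2 1.41, edgeR adjusted p = 0.00271), Hoxa7 (0.80, 0.0356) and Hoxa9 (0.69, 0.0110) were higher, and Hoxc5 (-1.75, 0.00274), Hoxc6 (-0.65, 0.0371), Hoxc10 (-0.63, 0.0158) and Hoxd4 (-2.28, 0.0222) lower in KPC Scr libraries. These calls need that library to be left out, and the share of Hox genes called was below that of all genes. With it, the adjusted p of these genes ran from 0.134 to 0.745, the last for Hoxc6.

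**Figure D3:**
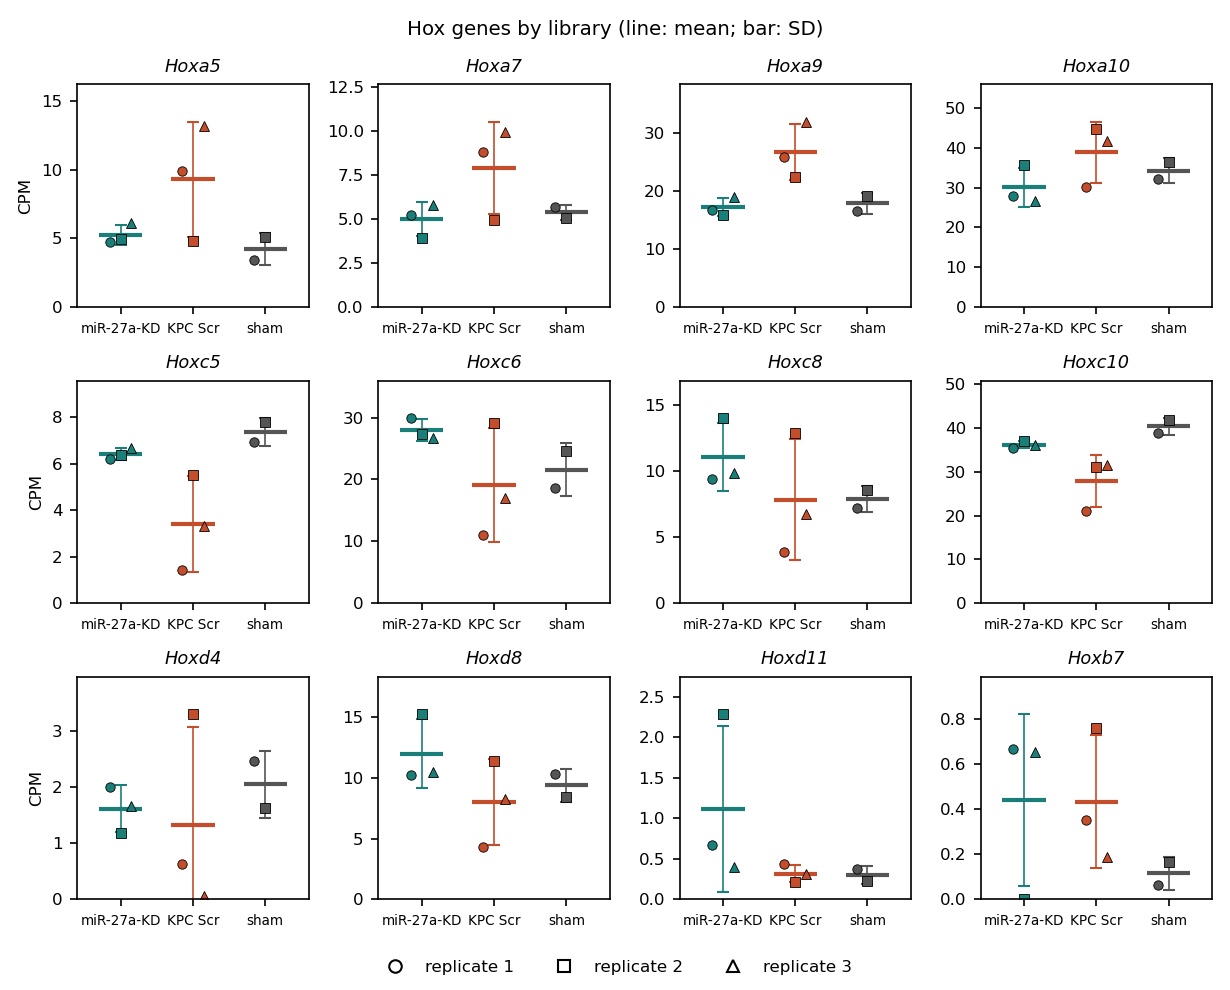
CPM of 12 Hox genes in each library, with miR-27a-KD, KPC Scr and sham from left to right; symbols give the replicate number, lines the mean and bars the SD (cut at 0). KPC Scr library 2 (squares, middle) lies near the other groups for Hoxa5 and Hoxa7 while libraries 1 and 3 of the group lie above them, and for Hoxd11 miR-27a-KD library 2 stands alone at 2.29 CPM.

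The comparison of miR-27a-KD with KPC Scr libraries bears on what inhibition of miR-27a-3p in the implanted cells does to the progenitors of the host. It shares the KPC Scr libraries with the comparison above, so a gene that is high or low in those libraries moves in opposite directions in both. Again 0 of 32 Hox genes passed the test with edgeR, against 0.0513% of all genes, and DESeq2 called 1 of the 30 with an adjusted p, Hoxa9, against 16.3% of all genes. At an unadjusted p under 0.05 there were 2 of 32, Hoxa9 and Hoxd11 (6.25%), against 32.4% of all genes. The groups did not overlap in 4 of 32 (12.5%), against 34.2% of all genes: Hoxc5 and Hoxc10 higher and Hoxa4 and Hoxa9 lower in miR-27a-KD libraries.

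Hoxa9 stood at 16.8, 15.9 and 18.9 CPM in miR-27a-KD libraries 1, 2 and 3 against 25.8, 22.4 and 31.9 CPM in KPC Scr. All 3 miR-27a-KD libraries were below all 3 KPC Scr libraries. The log2 change was -0.63 ± 0.19 (edgeR adjusted p = 0.0856), and with DESeq2, which called it, -0.65. Over the alternatives its adjusted p ran from 0.00342 to 0.247.

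Hoxd11 (chr2:74679557-74687016), which with Hoxa11 patterns the lower segment of the limb, stood at 0.667, 2.29 and 0.394 CPM in miR-27a-KD libraries against 0.431, 0.211 and 0.315 CPM in KPC Scr. Library 2 of miR-27a-KD, with 41 reads, stood far above the others. The gene had a log2 change of 1.71 ± 0.75 (edgeR adjusted p = 0.148), and the groups overlapped.

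Hoxa5 stood at 4.72, 4.97 and 6.08 CPM in miR-27a-KD libraries 1, 2 and 3 against 9.87, 4.82 and 13.2 CPM in KPC Scr, with a log2 change of -0.80 ± 0.38 (edgeR adjusted p = 0.176). Hoxa7 stood at 5.23, 3.91 and 5.82 CPM in miR-27a-KD against 8.82, 4.94 and 9.95 CPM in KPC Scr (-0.64 ± 0.33, adjusted p = 0.196). In both, KPC Scr library 2 lay within the range of the miR-27a-KD libraries. Hoxa10 stood at 28.0, 35.7 and 26.6 CPM in miR-27a-KD against 30.1, 44.8 and 41.6 CPM in KPC Scr, and Hoxa11 at 6.77, 10.1 and 6.25 CPM against 8.38, 14.4 and 8.75 CPM. For these the groups overlapped, and library 2 was the highest in both groups. The log2 changes were -0.37 ± 0.20 for Hoxa10 and -0.46 ± 0.30 for Hoxa11 (edgeR adjusted p = 0.226 and 0.299).

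Of the 10 tested HoxA genes 1, Hoxa3, had a log2 change above 0 (median -0.60), against 50.8% of all genes. Under each alternative the count was 0 or 1 of 10. In HoxC it was 7 of 8 (median 0.31). With DESeq2's size factors, and without KPC Scr library 2, KPC Scr library 3 or miR-27a-KD library 2, it was 6 of 8, and with DESeq2's size factors the gene that crossed 0 was Hoxc11. In HoxB it was 4 of 7 and in HoxD 5 of 7.

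Hoxc5 stood at 6.21, 6.36 and 6.69 CPM in miR-27a-KD libraries 1, 2 and 3 against 1.41, 5.54 and 3.34 CPM in KPC Scr, a log2 change of 0.91 ± 0.42 (edgeR adjusted p = 0.170). Hoxc10 stood at 35.5, 37.1 and 36.1 CPM in miR-27a-KD against 21.0, 31.2 and 31.5 CPM in KPC Scr, a log2 change of 0.38 ± 0.19 (adjusted p = 0.190). In both genes the miR-27a-KD libraries lay close together and above the scattered KPC Scr libraries.

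Hoxc6 stood at 30.0, 27.3 and 26.7 CPM in miR-27a-KD against 11.1, 29.2 and 17.1 CPM in KPC Scr, and Hoxc8 at 9.39, 14.1 and 9.84 CPM against 3.92, 12.9 and 6.74 CPM. Hoxd8 stood at 10.2, 15.3 and 10.5 CPM in miR-27a-KD against 4.31, 11.4 and 8.31 CPM in KPC Scr. In each, KPC Scr library 2 reached into the range of the miR-27a-KD libraries and the adjusted p was 0.243, 0.399 and 0.264. Hoxc9, at 13.2, 10.8 and 13.2 CPM against 12.9, 13 and 21.0 CPM, was the 1 HoxC gene with a log2 change below 0 (-0.32 ± 0.25, edgeR adjusted p = 0.368).

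Hoxc4, at 13.8, 11.2 and 12.2 CPM in miR-27a-KD against 9.83, 12.6 and 10.8 CPM in KPC Scr, and Hoxc11, at 8.31, 11.1 and 7.65 CPM against 10.2, 9.21 and 7.18 CPM, overlapped. Their intervals were -0.32 to 0.63 and -0.55 to 0.57 on the log2 scale. Hoxb3 stood at 2.10, 1.00 and 2.36 CPM in miR-27a-KD against 1.57, 0.676 and 3.27 CPM in KPC Scr, and Hoxb7 at 0.667, 0 and 0.656 CPM against 0.353, 0.761 and 0.189 CPM. The log2 changes of these 2 HoxB genes, 0.10 ± 0.63 and 0.01 ± 0.81, turned sign with single libraries left out.

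Without KPC Scr library 2, 9 of 32 Hox genes passed the test in miR-27a-KD against KPC Scr libraries (28.1%), against 54% of all genes. Hoxc5 (log2 1.54, edgeR adjusted p = 0.00343), Hoxc6 (1.01, 0.00184), Hoxc8 (1.10, 0.00860), Hoxc10 (0.47, 0.0379), Hoxd4 (1.97, 0.0323) and Hoxd8 (0.98, 0.0182) were higher in miR-27a-KD libraries. Hoxa5 (-1.11, 0.00366), Hoxa7 (-0.89, 0.0109) and Hoxa9 (-0.74, 0.00342) were lower. With all 8 libraries the adjusted p of these 9 genes ran from 0.0856 for Hoxa9 to 0.874 for Hoxd4.

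**Figure D4:**
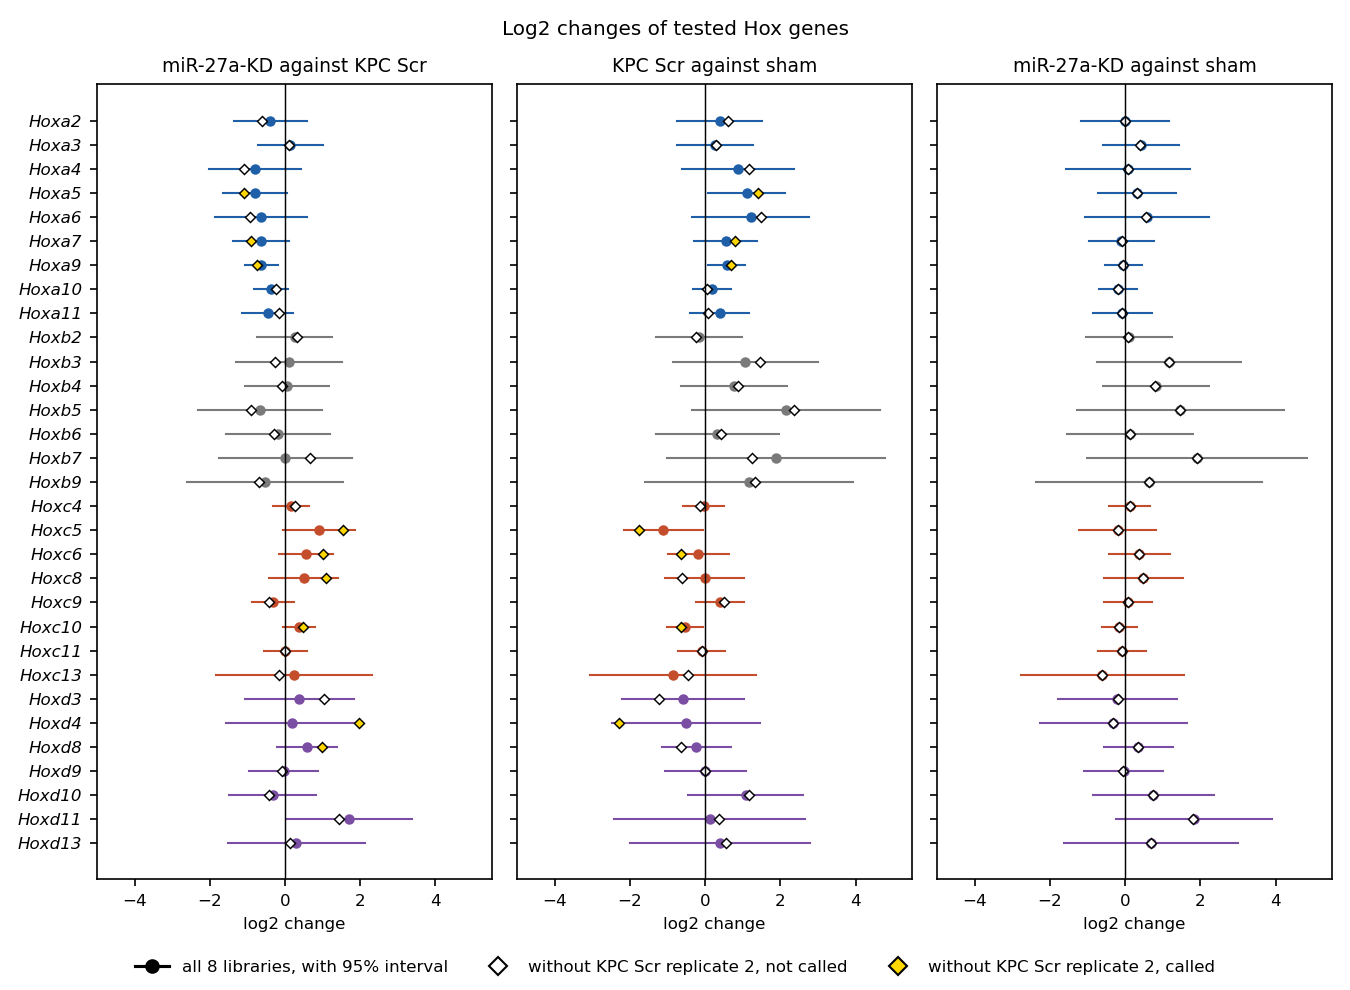
Log2 change of the tested Hox genes, all but 1 of the 32, in the 3 comparisons: circles with 95% intervals use all 8 libraries, diamonds leave out KPC Scr library 2, and gold diamonds passed the test (adjusted p under 0.05). With all libraries none passed; without KPC Scr library 2 there were 9 in miR-27a-KD against KPC Scr, 7 in KPC Scr against sham and 0 in miR-27a-KD against sham.

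In miR-27a-KD against sham libraries 0 of 32 Hox genes passed the test with edgeR, against 0.00733% of all genes, and none had an unadjusted p under 0.05, against 2.37% of all genes. DESeq2 called 0 of the 23 with an adjusted p, against 0.207% of all genes, and without KPC Scr library 2, which enters this comparison only through the shared filter, scaling and spread, edgeR again called 0, against 0.236% of all genes. The groups did not overlap in 6 of 32 (18.8%), against 27.2% of all genes: Hoxb4, Hoxc6, Hoxc8 and Hoxd11 higher and Hoxc5 and Hoxc10 lower in miR-27a-KD libraries.

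All 7 tested HoxB genes had a log2 change above 0 (median 0.82), against 49.8% of all genes, as did 5 of 10 in HoxA, 4 of 8 in HoxC and 4 of 7 in HoxD. None of the 7 passed the test, and without sham library 1 it was 5 of 7 with a median of 0.50.

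Some intervals were narrow. Hoxc10 stood at 35.5 to 37.1 CPM in miR-27a-KD libraries against 39 and 41.8 CPM in sham, a log2 change of -0.16 ± 0.21 (95% interval -0.63 to 0.31). Hoxa9 stood at 15.9 to 18.9 CPM against 16.6 and 19.1 CPM (-0.05 ± 0.22, interval -0.55 to 0.44), and Hoxa10 at 26.6 to 35.7 CPM against 32.1 and 36.4 CPM (-0.19 ± 0.23, interval -0.70 to 0.32). A change of more than 2-fold in either direction lay outside these 3 intervals.

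Other intervals were wide. Hoxd11 stood at 0.667, 2.29 and 0.394 CPM in miR-27a-KD against 0.380 and 0.223 CPM in sham (log2 1.82 ± 0.94, interval -0.26 to 3.90), and Hoxb7 at 0.667, 0 and 0.656 CPM against 0.0633 and 0.167 CPM (1.91 ± 1.33, interval -1.01 to 4.82). For such genes, with few reads and a wide spread between libraries, a change of several fold was not detectable.

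The spread within groups differed too. Over the 23 Hox genes with a mean of at least 1 CPM, the median coefficient of variation between libraries was 20.3% in miR-27a-KD, 42.5% in KPC Scr and 12.9% in sham. Over all 12322 tested genes with a mean of at least 1 CPM it was 9.87% in miR-27a-KD, 28.3% in KPC Scr and 10.9% in sham. That set has no upper limit on the level, and counting error weighs less at high counts. The Hox genes were thus not compared with genes of equal level.

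Genes that set the identity of a limb stand beside the Hox code. Tbx4 and Pitx1 specify the hindlimb and Tbx5 the forelimb. Tbx4 stood at 17.4, 12.2 and 19.2 CPM in miR-27a-KD libraries, 25.5, 19.5 and 25.7 CPM in KPC Scr and 12.3 and 14.6 CPM in sham. Pitx1 stood at 4.62, 5.25 and 6.47 CPM in miR-27a-KD, 3.45, 7.23 and 0.882 CPM in KPC Scr and 5.19 and 5.58 CPM in sham. Both hindlimb genes had reads in each library, Tbx4 was highest in the KPC Scr libraries without overlap, and the forelimb gene Tbx5 was present as well.

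Tbx5 stood at 15.1, 17.7 and 15.9 CPM in miR-27a-KD libraries 1, 2 and 3 against 7.72, 6.93 and 9.26 CPM in KPC Scr, and at 11.1 and 16.1 CPM in sham. Here all 3 KPC Scr libraries, library 2 included, were below all others. The log2 change was 1.03 ± 0.23 in miR-27a-KD against KPC Scr (edgeR adjusted p = 0.0697, DESeq2 called it) and -0.78 ± 0.25 in KPC Scr against sham (adjusted p = 0.106). Both passed without KPC Scr library 2, at 0.94 (edgeR adjusted p = 0.00393) and -0.70 (0.0344).

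Of 22 regulators of the limb field and limb mesenchyme, 20 were tested and 0 were called with edgeR in any comparison. At an unadjusted p under 0.05 there were 9 in miR-27a-KD against KPC Scr, 8 in KPC Scr against sham and 1 in miR-27a-KD against sham, against 32.4%, 29.2% and 2.37% of all genes. DESeq2 called 6, 6 and 0 of 19 in these comparisons, against 16.3%, 14.3% and 0.207% of all genes. With KPC Scr library 2 left out, edgeR called 12 in miR-27a-KD against KPC Scr (6 higher, 6 lower) and 11 in KPC Scr against sham (7 higher, 4 lower), near the 54% and 51% of all genes called in the same fits. Msx2 and Sall4 had 0 reads in every library.

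Emx2, a homeobox gene of the limb girdles and the urogenital tract, stood at 20.0, 23.6 and 17.0 CPM in miR-27a-KD, 26.0, 24.1 and 25.1 CPM in KPC Scr and 12.1 and 13 CPM in sham. The KPC Scr libraries lay close together and above all others, with a log2 change of 0.99 ± 0.21 against sham (edgeR adjusted p = 0.0546, called by DESeq2). Zbtb16, which encodes the zinc finger protein PLZF and restrains Hox genes in the limb bud, stood at 163, 203 and 173 CPM in miR-27a-KD, 1091, 260 and 1052 CPM in KPC Scr and 73.2 and 154 CPM in sham. Its log2 change was 2.81 ± 0.60 in KPC Scr against sham (adjusted p = 0.0546) and -2.15 ± 0.50 in miR-27a-KD against KPC Scr (adjusted p = 0.0717), and KPC Scr library 2 lay nearer to the other groups. Without that library, Emx2 (1.03, edgeR adjusted p = 0.0016) and Zbtb16 (3.24, 1.8e-05) passed in KPC Scr against sham, and Zbtb16 (-2.58, 2.23e-05) in miR-27a-KD against KPC Scr.

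Prrx1, which marks limb mesenchyme, stood at 257, 234 and 261 CPM in miR-27a-KD, 90.6, 205 and 132 CPM in KPC Scr and 176 and 227 CPM in sham. Its relative Prrx2 stood at 28.4, 30.6 and 26.5 CPM in miR-27a-KD, 0.274, 26.5 and 1.13 CPM in KPC Scr and 30.0 and 27.1 CPM in sham. KPC Scr libraries 1 and 3 had 7 and 18 reads of Prrx2, whereas the other 6 libraries had 475 to 626.

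**Figure D5:**
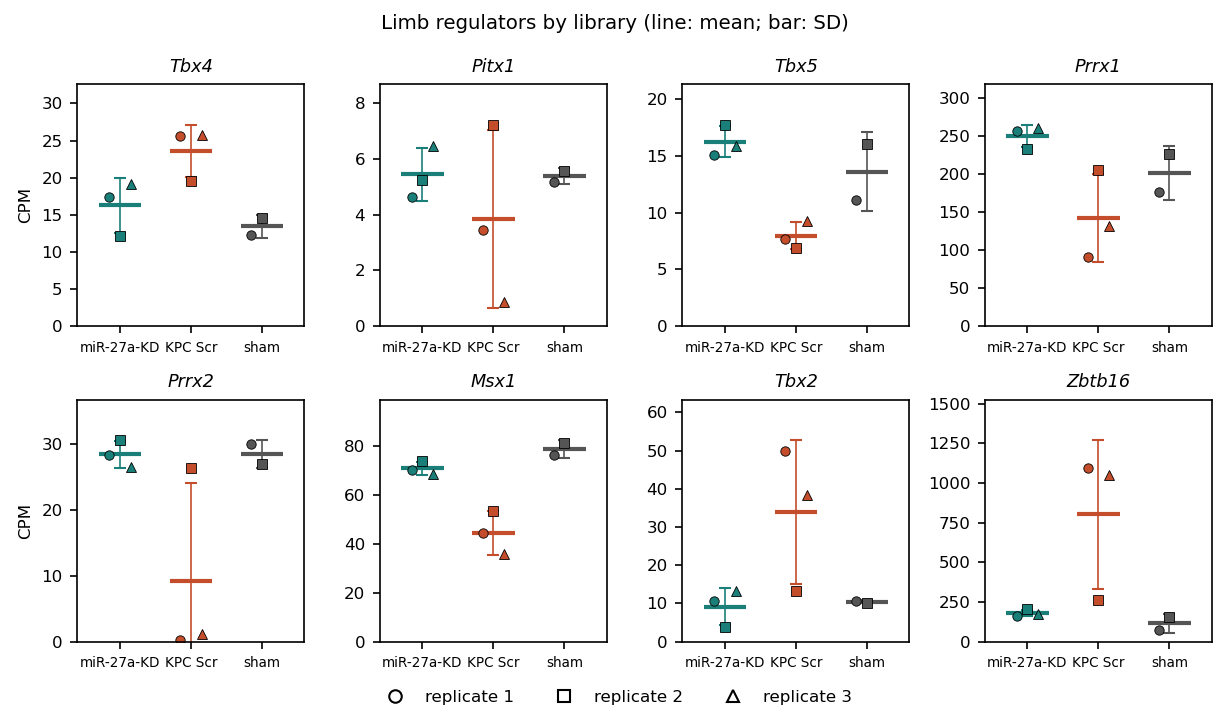
CPM of 8 regulators of limb identity and limb mesenchyme in each library, with miR-27a-KD, KPC Scr and sham from left to right; symbols give the replicate number, lines the mean and bars the SD (cut at 0). For Tbx5 all 3 KPC Scr libraries lie below the others, at 6.93 to 9.26 CPM, whereas for Prrx2 and Zbtb16 KPC Scr library 2 lies near the other groups.

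The partners of Hox proteins are the TALE homeodomain factors of the Pbx, Meis and Pknox families, which bind DNA together with them. All 9 were tested. Of all genes, edgeR called 0.0513%, 1.58% and 0.00733% in miR-27a-KD against KPC Scr, KPC Scr against sham and miR-27a-KD against sham. DESeq2 called 16.3%, 14.3% and 0.207% of all genes. Of the 9, 0 were called with either tool in any comparison. Without KPC Scr library 2, edgeR called 4 in miR-27a-KD against KPC Scr (1 higher, 3 lower) and 5 in KPC Scr against sham (4 higher, 1 lower), where it called 54% and 51% of all genes. Meis3 averaged 32.6 ± 2.71 CPM in miR-27a-KD (SD, n = 3) against 46.9 ± 6.88 CPM in KPC Scr (n = 3), with a log2 change of -0.52 ± 0.17 (edgeR adjusted p = 0.0922). Pknox1 stood at 10.8, 29.5 and 14.9 CPM in KPC Scr against 40.7 and 26.9 CPM in sham, a log2 change of -0.87 ± 0.38 (adjusted p = 0.165), with KPC Scr library 2 within the sham range. Without that library both passed in these comparisons, Meis3 at -0.65 (edgeR adjusted p = 0.00215) and Pknox1 at -1.41 (0.000419).

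Polycomb proteins keep Hox genes silent, and Trithorax proteins and H3K27 demethylases keep them active. All 21 Polycomb and 13 Trithorax genes listed were tested, and edgeR called 0 in any comparison. At an unadjusted p under 0.05 there were 9 Polycomb genes in miR-27a-KD against KPC Scr and 6 in KPC Scr against sham, against 32.4% and 29.2% of all genes. DESeq2 called Cbx2 and Cbx7 in both, against 16.3% and 14.3% of all genes. Without KPC Scr library 2, edgeR called 13 of 21 Polycomb genes in miR-27a-KD against KPC Scr (2 higher, 11 lower) and 15 of 21 in KPC Scr against sham (12 higher, 3 lower), where it called 54% and 51% of all genes.

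Cbx7, a reader of the H3K27me3 mark, stood at 77.8, 51.6 and 82.7 CPM in miR-27a-KD, 182, 107 and 213 CPM in KPC Scr and 45.5 and 91.0 CPM in sham. Its relative Cbx2 stood at 7.39, 4.24 and 5.64 CPM in miR-27a-KD, 15.9, 8.66 and 30.6 CPM in KPC Scr and 4.11 and 6.97 CPM in sham. In both genes the KPC Scr libraries lay above all others, and library 2 was the lowest of the 3. The log2 changes in miR-27a-KD against KPC Scr were -1.24 ± 0.33 for Cbx7 and -1.65 ± 0.46 for Cbx2 (edgeR adjusted p = 0.0743 and 0.0760). Phc2, a Polycomb subunit, averaged 57.5 ± 1.38 CPM in miR-27a-KD (n = 3) against 94.2 ± 29.0 CPM in KPC Scr (n = 3; log2 -0.71 ± 0.24, adjusted p = 0.0977). Without KPC Scr library 2, Cbx7 (-1.48, edgeR adjusted p = 0.00207), Cbx2 (-1.98, 0.000369) and Phc2 (-0.95, 0.000217) passed in miR-27a-KD against KPC Scr.

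Of the Trithorax list DESeq2 called Kmt2b, a histone H3K4 methyltransferase, in miR-27a-KD against KPC Scr and in KPC Scr against sham. It stood at 82.3, 86.0 and 95.3 CPM in miR-27a-KD, 298, 95.9 and 274 CPM in KPC Scr and 90.1 and 91.8 CPM in sham. KPC Scr libraries 1 and 3 were high and library 2 was near the other groups. The edgeR adjusted p was 0.0733 for miR-27a-KD against KPC Scr and 0.102 for KPC Scr against sham. Wdr5, a shared subunit of these methyltransferases, had a log2 change of -0.61 ± 0.20 and Psip1 one of 0.53 ± 0.18 in miR-27a-KD against KPC Scr (edgeR adjusted p = 0.0951 and 0.0966). At an unadjusted p under 0.05 there were 4 of 13 in each of these 2 comparisons, against 32.4% and 29.2% of all genes, and 0 in miR-27a-KD against sham. When KPC Scr library 2 was left out, edgeR called 9 (3 higher, 6 lower) in miR-27a-KD against KPC Scr and 8 (6 higher, 2 lower) in KPC Scr against sham, where it called 54% and 51% of all genes. Kmt2b (log2 -1.71, edgeR adjusted p = 9.7e-07), Wdr5 (-0.78, 0.0014) and Psip1 (0.70, 0.00145) then passed in miR-27a-KD against KPC Scr.

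Noncoding genes of the clusters were low. Of 18 listed, 16 were in the table and 4 were tested, with 0 called by either tool and 0 at an unadjusted p under 0.05. Of all genes, 32.4%, 29.2% and 2.37% had such a p in miR-27a-KD against KPC Scr, KPC Scr against sham and miR-27a-KD against sham. The shares of all genes called were 0.0513%, 1.58% and 0.00733% with edgeR and 16.3%, 14.3% and 0.207% with DESeq2. Mira, at the HoxA cluster, averaged 4.60 ± 1.44 CPM in miR-27a-KD (n = 3), 5.67 ± 1.21 CPM in KPC Scr (n = 3) and 3.58 ± 0.228 CPM in sham (n = 2). Hotairm1, also at the HoxA cluster, averaged 0.754 ± 0.523 CPM in miR-27a-KD, 1.57 ± 0.611 CPM in KPC Scr and 0.636 ± 0.363 CPM in sham, and Hoxa11os 3.37 ± 0.913 CPM in miR-27a-KD, 5.23 ± 2.33 CPM in KPC Scr and 3.49 ± 0.278 CPM in sham. The means of these 3 transcripts of the HoxA cluster were highest in KPC Scr, as were those of the tested HoxA genes other than Hoxa3. All 3 transcripts overlapped between miR-27a-KD and KPC Scr libraries. Hoxa11os stood at 2.66, 7.23 and 5.79 CPM in KPC Scr libraries 1, 2 and 3, and its level in library 1 was below that of every other library. Its reads could not be separated from those of Hoxa11. Hotair, in the HoxC cluster, stood at 4.26, 5.19 and 2.36 CPM in miR-27a-KD, 1.84, 3.93 and 3.27 CPM in KPC Scr and 1.64 and 4.69 CPM in sham, and the groups overlapped. Hottip, Haglr, Mir10a and Mir10b had 0 reads in every library, and of the homeobox genes that flank the clusters Evx1 had 0 and Evx2 at most 3 reads in a library.

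Of 11 genes for genome architecture and for the Cdx and Gli regulators of Hox genes, 8 were tested, with 0 called by either tool. In miR-27a-KD against KPC Scr, KPC Scr against sham and miR-27a-KD against sham, edgeR called 0.0513%, 1.58% and 0.00733% of all genes. DESeq2 called 16.3%, 14.3% and 0.207% of all genes. At an unadjusted p under 0.05 there were 1, 1 and 0 of the 8 in these comparisons, against 32.4%, 29.2% and 2.37% of all genes. After leaving out KPC Scr library 2, edgeR called 4 (1 higher, 3 lower) in miR-27a-KD against KPC Scr and 6 (3 higher, 3 lower) in KPC Scr against sham, where it called 54% and 51% of all genes. Cdx1, Cdx2 and Cdx4, which switch on Hox genes in the embryo's trunk, had 0 reads in every library. Nipbl, which loads cohesin, averaged 152 ± 55.1 CPM in KPC Scr (n = 3) against 94.2 ± 3.15 CPM in sham (n = 2; log2 0.69 ± 0.29, edgeR adjusted p = 0.157). Gli3, a limb patterning factor of the Hedgehog pathway, averaged 62.4 ± 6.78 CPM in KPC Scr against 87.1 ± 24.4 CPM in sham (-0.48 ± 0.22, adjusted p = 0.186), and Gdf11, a ligand that sets the trunk to tail boundary of the Hox code, 0.752 ± 0.721 CPM against 2.26 ± 0.597 CPM (-1.63 ± 0.79, adjusted p = 0.197). All 3 genes passed the test without KPC Scr library 2, with log2 changes of 0.94 for Nipbl (edgeR adjusted p = 0.00112), -0.57 for Gli3 (0.036) and -2.81 for Gdf11 (0.0163).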

How the data were processed

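RNA of sorted progenitors from 8 samples (3 miR-27a-KD, 3 KPC Scr, 2 sham) was sequenced as polyadenylated, strand-marking libraries in paired reads of 59 bases. The authors deposited raw counts per gene symbol. The build was mm10 per the submitters' processing notes, which also list STAR, Bowtie, R 4.2.1, DESeq2 1.36.0 and bcl2fastq 2.20 with no roles. How reads were counted, with which annotation and strand setting, is not given in the sources used here, so reads of overlapping and antisense genes may be misassigned. Of 24419 rows, 6786 were 0 everywhere. No per-sample column was left out.

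Counts were analysed with edgeR 4.0.16 in R 4.3.3: filterByExpr (minimum 10, total 15), TMM scaling, 3 group means over all 8 libraries, robust quasi-likelihood test and Benjamini-Hochberg adjustment over 13646 genes (threshold 0.05). The spread is pooled over the 3 groups. Levels per kb used joined exons of GENCODE M21 (GRCm38). The named Hox genes were the 12 highest per kb and the 3 with the smallest p in each comparison; Hoxd4 was added after its values were seen. For each other list the 3 tested genes with the smallest p were named, except 1 that is not reported here; Tbx4, Pitx1, Prrx1, Prrx2 and Hotair were added as identity genes after their values were seen. The members and lists were chosen with earlier results of these data known. The test was tried on simulated counts first. DESeq2 1.42.0, DESeq2's size factors, no filter, fits of 2 groups alone, a replicate block and leaving out each library were tried. Intervals of log2 changes come from the fit and include the spread between libraries, whereas the limit on a count of 0 covers counting error only.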

Additional observations from a re-analysis of the deposited data

How the results depend on the processing

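Over 48 results for the 16 named Hox genes in 3 comparisons, 566 of 615 values under alternatives kept their direction and side of the threshold. Of the others, 15 passed the threshold that they had missed with all libraries and 34 changed sign. None of the 48 results was called with all libraries, so no call could be lost. Of the 15, 1 came with DESeq2 (Hoxa9 in miR-27a-KD against KPC Scr) and the others without KPC Scr library 2.

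The number of all genes called in miR-27a-KD against KPC Scr, 7 as reported, was 11 with no filter, 2206 with DESeq2, 0 with the replicate block, 0 in the fit of the 2 groups alone and 0 to 7313 with 1 library left out, the highest without KPC Scr library 2. In KPC Scr against sham it was 215 as reported, 1973 with DESeq2, 16 with the replicate block, 4 in the 2 groups alone and 0 to 6908 with 1 library left out. In miR-27a-KD against sham it was 1 as reported, 2 with no filter, 26 with DESeq2, 0 with the block, 101 in the 2 groups alone and 0 to 32 with 1 library left out. Hox genes called numbered 1 with DESeq2 and 0 to 9 with 1 library left out in miR-27a-KD against KPC Scr, 0 to 7 in KPC Scr against sham and 0 throughout in miR-27a-KD against sham. Asking for 10 reads in all 8 libraries left 19 Hox genes expressed. Leaving out a sham library leaves 1, which is assumed to vary like the other groups. The cause of these differences was not tested.

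Same-numbered libraries correlated at -0.06 to 0.17 in their deviations from the group means, and differently numbered libraries of different groups at -0.15 to 0.07. With 2 or 3 libraries per group these deviations are tied to each other. The values therefore cannot decide whether same-numbered libraries share more than a number. Pairing by a replicate block called 0 Hox genes in each comparison. Sign changes under the block were Hoxc11 in KPC Scr against sham (0.013) and, in miR-27a-KD against sham, Hoxc9 (-0.065), Hoxc11 (0.036) and Hoxa11 (0.017). In miR-27a-KD against KPC Scr, DESeq2's size factors gave -0.0072 for Hoxb7 and -0.0088 for Hoxc11, and DESeq2 gave -0.022 for Hoxb3. With 1 library left out, log2 changes that turned sign in miR-27a-KD against sham ran from -0.31 to 0.058 for Hoxa11, -0.23 to 0.038 for Hoxa7, -0.16 to 0.053 for Hoxa9, -0.26 to 0.021 for Hoxc11, -0.013 to 0.25 for Hoxc4 and -0.00034 to 0.17 for Hoxc9. In miR-27a-KD against KPC Scr they ran from -0.28 to 0.70 for Hoxb3, -0.40 to 0.66 for Hoxb7 and -0.16 to 0.12 for Hoxc11. In KPC Scr against sham they ran from -0.21 to 0.029 for Hoxc11, -0.18 to 0.10 for Hoxc4, -0.65 to 0.10 for Hoxc6, -0.63 to 0.33 for Hoxc8, -0.24 to 0.52 for Hoxd11 and -0.63 to 0.082 for Hoxd8. Genes with few reads, such as Hoxb7 and Hoxd11, had wide intervals, and the parts of depth and of the spread between libraries in them were not tested.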
